A study of Mus musculus with 5 samples.

Results

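Solute carrier (Slc) genes encode membrane proteins that move amino acids, sugars, nucleosides, ions, metals and cofactors across the plasma membrane and organelle membranes. Their expression was read on 5 arrays, 1 for each of 5 sorted populations of developing mouse T cells. The members were all genes whose probe sets carry 1 symbol beginning with Slc and a digit. There were 151 such genes among 8251 genes, read by 185 probe sets, and the probe set with the highest mean signal over the arrays stood for each gene. All cells came from male C57BL6 mice aged 5 weeks, and thymuses of 10 mice went into the sorts. The labels do not say if the mice were pooled. The DN1, DN2, DN3 and preDP cells were lineage negative, CD24 positive and taken from thymocytes enriched for blasts. DN1 cells were CD25 negative and CD44 high, DN2 CD25 positive and CD44 high, DN3 CD25 positive and CD44 low, and preDP CD25 negative and CD44 low. DP cells were CD4 and CD8 positive and sorted from total thymocytes, so for DP the stage and the source of the cells cannot be told apart.

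Thymocytes pass through the double negative (DN) stages before they become double positive (DP) for CD4 and CD8. Proliferating lymphocytes import amino acids, nucleosides, iron and vitamins for growth, whereas most DP cells are small and rest. The best known carriers of growing T cells are the amino acid exchanger made of Slc7a5 and Slc3a2, the glutamine carriers Slc1a5 and Slc38a2, the glucose carriers Slc2a1 and Slc2a3 and the lactate carrier Slc16a1. Carriers are grouped here by substrate, and the families that serve mitochondria and the Golgi apparatus are kept apart from those of the cell surface.

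Each population had 1 array, so no test was possible, and every fold compares 2 arrays. Values are MAS5 signals on a linear scale. Signals under a floor of 130.4, the median of all gene probe set values, were set to the floor before ratios were taken, and a ratio against such a value is written as at least that size. A gene is called here when 2 arrays are at least 2-fold apart. In bulk samples, fewer cells of a type that express a gene and less of its RNA per cell cannot be told apart.

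Among the sort markers, Il2ra and Cd4 followed their gates. Il2ra, the gene of the CD25 chain, read 1156 for DN2, 439 for DN3 and under the floor elsewhere. Cd4 was 5096 in DP and at most 132 elsewhere. Cd8a and Cd8b1 were highest in DP, at 20020 and 28020, but were not confined to it. They read 2031 and 6241.5 in preDP and 755 and 342 in DN1, and Cd8b1 was 319 in DN3. The DN1 array also carried markers of other blood cells. Of 16 myeloid markers, 14 were above the floor in DN1 and their summed signal was 127317, against 3333 in DN2 and between 699.6 and 900.4 in DN3, preDP and DP. Dendritic cell markers summed to 144810 in DN1 and at most 17525 elsewhere, and B lineage markers to 103925 in DN1 and at most 10498 elsewhere. The dendritic sum of 17525 was that of DN3, where Ly6d alone made up 15836. Unlike the rest of its list, Ly6d was lowest in DN1, at 3480. Erythroid markers summed to between 482 and 1180 on all arrays, stromal markers to between 839.5 and 1058. Natural killer markers summed to 3004 in DN3, 5128 in preDP and at most 716.6 elsewhere, and Gzma alone made up 2902 and 5036 of the first 2 sums, where the other 4 listed markers on the array were under the floor. The T lineage sum was 4425 in DN1 and 126846 in DP. The part of these cells in the DN1 values of Slc genes was not tested.

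Of the 151 Slc genes, 86 were above the floor on at least 1 array and 65 on all 5, while 65 stayed at or under it on every array. The background over all genes was 65.9% above the floor on at least 1 array and 48.5% on all 5. Among the 86, 35 were at least 2-fold apart between their highest and lowest array, where the background was 46.2% of all measured genes. Those 35 were highest in DP for 15 genes, in DN3 for 7, in DN1 for 6, in DN2 for 4 and in preDP for 3. Over all genes, 32.8% of those 2-fold apart were highest in DP, 10% in DN3, 25.2% in DN1, 11.5% in DN2 and 20.5% in preDP. Without the DN1 array 27 Slc genes were 2-fold apart, with a background of 34.7%, and without the DP array 17, with a background of 30.3%. The step from preDP to DP held 17 of the 27 calls of Slc genes in consecutive steps, and 1119 of 2271 over all genes. Of the 27 calls, 20 were under 2.5-fold and 5 reached 3-fold, and over all genes 35.2% of the calls reached 3-fold.

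**Figure D1:**
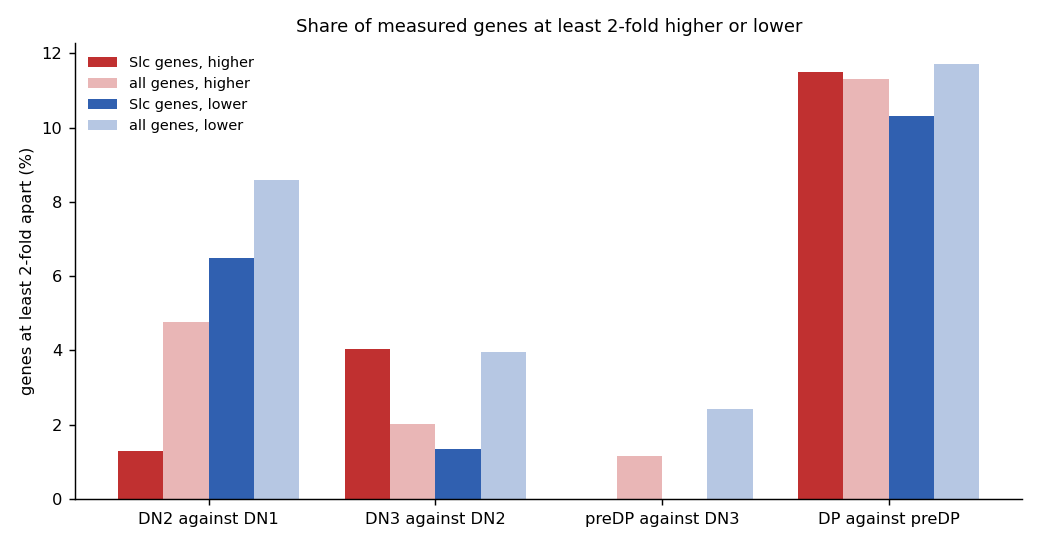
Share of measured genes at least 2-fold higher (red) or lower (blue) in each of the 4 consecutive comparisons, for Slc genes (full colour) and all genes (pale). The vertical axis is the percentage of genes above the floor on either array. The Slc shares are 11.5% higher and 10.3% lower for DP against preDP, and no Slc gene is called for preDP against DN3.

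In DN2 against DN1, 1 of 77 measured Slc genes was at least 2-fold higher and 5 were lower. The backgrounds were 4.76% higher and 8.58% lower, 13.3% in all. The median log2 ratio of the measured Slc genes was -0.11, and that of all measured genes was 0.13. This step depended on the scaling of the arrays. With an equal median over all gene probe sets 2 of 76 Slc genes were higher and 1 lower, where 17.3% of all genes were called. The medians were then 0.13 for Slc genes and 0.37 for all genes. With an equal median over probe sets above the floor on all arrays none of 81 was higher and 6 were lower. There 12.8% of all genes were called, and the medians were -0.24 and -0.02. The mean over probe sets of a gene left 2 calls of 73, both lower, with 11.7% of all genes called. The calls lost were those of Slc29a1, Slc2a3, Slc30a4 and Slc6a6. Each has a second probe set under the floor on both arrays, which pulls the mean ratio towards no difference. From DN2 to DN3, 3 of 74 were higher and 1 lower, with backgrounds of 2.02% and 3.95%, 5.97% in all, and the medians were 0.15 for Slc genes and 0.00 for all genes. None of 78 Slc genes was called between DN3 and preDP, where the backgrounds were 1.16% higher and 2.43% lower, 3.59% in all. In DP against preDP, 9 of 78 were higher and 8 lower, with backgrounds of 11.3% and 11.7%, 23% in all. An equal median over all gene probe sets made this 10 higher and 6 lower of 82, where 23.4% of all genes were called. Adding a constant in place of the floor left 4 higher and 2 lower of 78, with 17% of all genes called. A floor at the 35th percentile gave 10 higher and 15 lower of 101, with 24.2% of all genes called. One at the 65th gave 8 higher and 3 lower of 54, with 21.7%. The Slc medians in the last 2 steps were -0.06 and -0.04, against 0.01 for all genes in both. One internal measure of error is how far a gene's 2 brightest probe sets differ in the same log2 ratio. It was taken only where both probe sets were above the floor on both arrays, so it leaves out pairs near or under the floor. Over 565 to 602 such genes it had an SD of 0.54, 0.44, 0.43 and 0.59 in the 4 steps in order. A 2-fold difference is 1 on this scale. This SD leaves out error shared by an array and variation between sorts or mice.

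Amino acid carriers made up 24 of the Slc genes, and 12 of these were above the floor on some array. Slc7a5, the light chain of the exchanger that imports large neutral amino acids, had signals of 1695 at DN1, 1179.5 at DN2, 2117 at DN3, 1815 at preDP and 562 at DP. It was 3.23-fold lower in DP than in preDP, and DP lay 2.10-fold below the lowest of the other arrays. Its heavy chain partner Slc3a2, also known as CD98, was 2726, 2350, 2847, 3184 and 2263 from DN1 to DP. The heavy chain was thus 1.41-fold apart at most, while the light chain was 3.76-fold apart. Slc3a2 also pairs with Slc7a6 and Slc7a7, the light chains of exchangers for cationic amino acids. Slc7a6 was under the floor in DN1 and had signals of 162, 217, 237 and 139.7 in DN2, DN3, preDP and DP. Slc7a7 was 284 in DN1 and no higher than 37.6 on the other arrays, at least 2.18-fold lower in DN2 than in DN1.

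Slc38a2 and Slc1a5, which take up glutamine at the cell surface, had their highest signals in DP, where Slc7a5 had its lowest. Slc38a2, a sodium-coupled carrier of small neutral amino acids, was 900.4 at DN1, 1225 at DN2, 872 at DN3, 1137 at preDP and 1942 at DP, a difference of 1.71-fold between DP and preDP. Slc1a5 was 588, 444, 406, 514 and 889.5 over the same arrays and 1.73-fold higher in DP than in preDP. Neither reached 2-fold at this step. Slc6a9, a glycine carrier, was 549 in DN1 and between 267 and 397 on the other arrays. Slc38a5, another glutamine carrier, ranged from 137 to 212 and Slc38a10 from 1559 to 2352. The other amino acid carriers above the floor, Slc1a4, Slc6a20b and Slc1a2, reached at most 155. Slc7a1, Slc7a8 and the cystine exchanger gene Slc7a11 were among 12 genes of the class at or under the floor on every array.

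Sugar carriers gave few readable values. Slc2a3, a glucose carrier of high affinity, was 295 in DN1 and 161 in preDP and under the floor in DN2, DN3 and DP, so DN2 was at least 2.26-fold lower than DN1. Slc2a1, the widely expressed glucose carrier, was 208 in DN1 and at most 99.2 on the other arrays. Of 5 measured sugar carriers, 3 were above the floor on all arrays. Slc50a1, a sugar carrier that is also found in the Golgi apparatus, was 1179.5 at DN1, 734 at DN2, 790.4 at DN3, 692 at preDP and 1477 at DP. It was 2.14-fold higher in DP than in preDP. Slc37a4, which brings glucose 6-phosphate into the endoplasmic reticulum, lay between 251 and 419, and Slc2a8, an intracellular hexose carrier, between 185 and 225. Slc16a1, which carries lactate and pyruvate, did not pass the floor in DN1 or DN2 and read 267 at DN3, 309 at preDP and 222 at DP. DN3 was at least 2.05-fold above DN2 for this gene. The other monocarboxylate carrier genes Slc16a7 and Slc16a8 did not pass the floor.

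Listed partners of these carriers were read beside them. Bsg, the chaperone that brings Slc16a1 to the membrane, ranged from 2764 to 3907. Txnip, which promotes removal of glucose carriers from the surface, was 643 in preDP and 3609 in DP. Hk2, a hexokinase that traps imported glucose, was 365 in preDP and under the floor in DP. The other listed hexokinase, Hk1, had much higher signals, 18604 in preDP and 13783 in DP, and was 1.57-fold apart over the arrays. Atp1b3, a subunit of the sodium pump that sustains sodium-coupled uptake, was 10239 at DN1, 13653 at DN2, 5897 at DN3, 6410 at preDP and 3858 at DP. Of the 7 partner and pump genes on the array, 1 was higher and 1 lower in DP against preDP, where the backgrounds were 11.3% and 11.7%. Of 10 measured genes of amino acid sensing, 1 was higher in that step and none lower, with the same backgrounds. That gene was Sesn1, which encodes a sestrin, at 1041 in preDP and 3716 in DP. Asns, the asparagine synthetase gene, was 708 in DN1 and 225 in DN2.

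Slc29a1, the equilibrative nucleoside carrier of the plasma membrane, was called in both the first and the last step. Its signals were 820.1 at DN1, 1696.5 at DN2, 1455 at DN3, 2057 at preDP and 988 at DP. DN2 was 2.07-fold higher than DN1, and DP was 2.08-fold lower than preDP. DN2, DN3 and preDP were the high arrays. With the mean over its probe sets neither step was called, since the second Slc29a1 probe set stayed under the floor on all arrays. Slc29a2, the related carrier, did not pass the floor, with a highest value of 128 in DN1. Among the 10 measured genes listed under nucleoside salvage, 1 was higher and 3 were lower in DP against preDP, beside 11.3% and 11.7% of all genes. The list also holds Hprt and Aprt, which act on nucleobases. Tk1, thymidine kinase, was 3769 in preDP and 854 in DP, and Adk, adenosine kinase, was 1822 and 343. Hprt, also called lower, was 3730 and 1353. Dck, deoxycytidine kinase, went from 4586 in preDP to 9999 in DP.

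**Figure D2:**
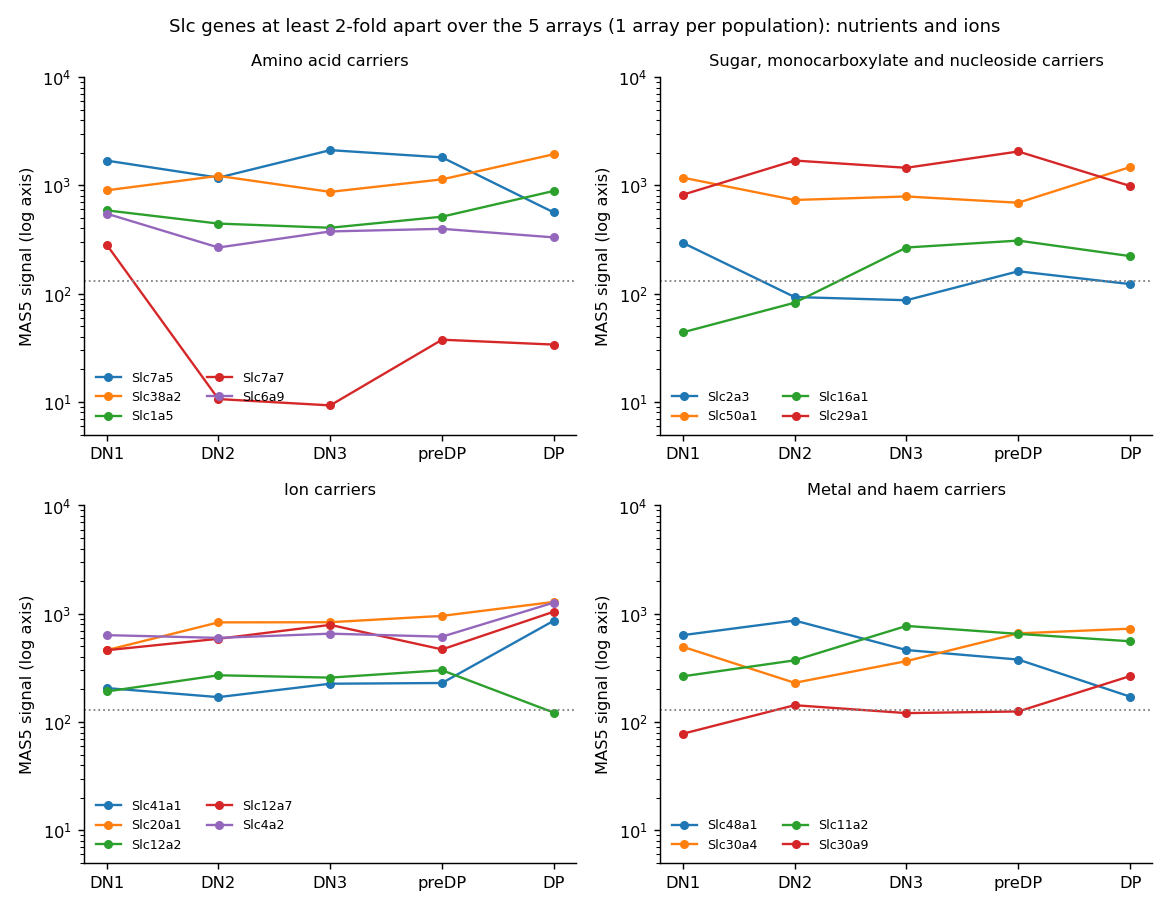
MAS5 signal (log axis) on each of the 5 arrays for the carriers of amino acids, of sugars, monocarboxylates and nucleosides, of ions, and of metals and haem that were at least 2-fold apart over the arrays. Each point is 1 array, lines join arrays of 1 gene, and the dotted line is the floor of 130.4. Slc7a5 and Slc48a1 are lowest in DP, whereas Slc41a1, Slc4a2 and Slc1a5 are highest there.

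The class of ion carriers had 21 genes, of which 9 were measured, and 4 of the 5 that were 2-fold apart were highest in DP, as were 32.8% of all genes 2-fold apart. Slc41a1, a magnesium carrier, had signals of 206 at DN1, 169.8 at DN2, 226 at DN3, 229 at preDP and 864 at DP. It was 3.76-fold higher in DP than in preDP, and DP stood apart from 4 arrays that were close to each other. Slc20a1, which imports phosphate with sodium, was 461 at DN1, 833 at DN2, 835 at DN3, 956 at preDP and 1286 at DP. It had no step down along the 5 stages, and DP was 2.79-fold above DN1. Slc4a2, an exchanger of chloride and bicarbonate, lay between 599 and 655 on 4 arrays and was 1268 in DP, 2.06-fold above preDP.

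The carriers that move chloride with cations lay on both sides of 0 in the last comparison. Slc12a7, a potassium and chloride exporter, was 460.3 at DN1, 587 at DN2, 789 at DN3, 469 at preDP and 1045 at DP, 2.23-fold higher in DP than in preDP. Slc12a4, another exporter of the family, was 311 in preDP and 513 in DP, 1.65-fold higher. Slc12a2, which imports sodium, potassium and chloride, was 191, 270.4, 257 and 301 from DN1 to preDP and under the floor in DP, so that DP was at least 2.31-fold lower. Slc9a8, a sodium and proton exchanger of the Golgi apparatus, ranged from 650.1 to 934. Slc8a1, the sodium and calcium exchanger, was 179 in DN1 and at most 64 elsewhere. Slc4a3, an anion exchanger, was above the floor in preDP alone, at 184. Slc4a1, the anion exchanger of red cells, did not pass the floor on any array.

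Metal and haem carriers were the class most often readable, with 14 of 16 genes above the floor on at least 1 array. Slc48a1, which carries haem out of the lysosome, was 635 at DN1, 866 at DN2, 462 at DN3, 378 at preDP and 172 at DP. It was 5.05-fold apart between DN2 and DP, and DP was 2.20-fold lower than preDP. Erythroid markers, of cells rich in haem, summed to 1180 in DN2, their highest value, and to 690.4 in DP, and their part in the Slc48a1 values was not tested. Slc11a2, which carries iron taken up by the transferrin receptor out of endosomes, read 264, 372, 772, 652 and 557 from DN1 to DP. DN3 was 2.08-fold above DN2, a log2 ratio of 1.05. The second Slc11a2 probe set, of lower signal, gave 0.81 for the same step, under 2-fold. Tfrc, the transferrin receptor gene, was 683 in DN1, between 1244 and 1459 in DN2, DN3 and preDP, and 857 in DP. Slc11a1, a metal carrier of phagocytes, was 213 in DN1 and at most 108 on the other arrays. Of the listed iron and zinc genes, 1 of 6 measured was higher in DP than in preDP and none lower, beside the 11.3% and 11.7% of all genes. It was Ireb2, an iron-responsive regulator, at 283 in preDP and 580 in DP.

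Among zinc carriers, Slc30a4, which moves zinc out of the cytosol into vesicles, was 496 at DN1, 230.3 at DN2, 365 at DN3, 659 at preDP and 728 at DP. DN2 was 2.15-fold lower than DN1, and DP was 3.16-fold higher than DN2. Slc30a9 was close to the floor, at 143 in DN2, at most 125 in DN1, DN3 and preDP, and 266 in DP. DP was at least 2.04-fold higher than preDP and 1.86-fold higher than DN2. By the probe sets used, the zinc importers Slc39a1, Slc39a3, Slc39a4, Slc39a6, Slc39a7 and Slc39a9 were above the floor on all arrays and under 2-fold apart. They were 1.28-fold to 1.88-fold apart. For Slc39a4 the probe set used has the suffix _r_at. Its other probe set, without a suffix, was 219 in DN1, 183 in DN2 and 182 in DN3 and under the floor in preDP and DP. Slc39a7, which releases zinc from the endoplasmic reticulum, was highest in DP, at 2213 against 1362 in preDP. Slc31a1, the copper importer, ranged from 465 to 657. Slc30a1 stayed under the floor. The metallothionein gene Mt1 was above the floor in DN1 alone, at 462.

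Mitochondrial carriers of family 25 counted 20 genes, and 16 were above the floor on all arrays. Of these 16, 2 were called lower in DP than in preDP and 1 higher, where the backgrounds were 11.7% lower and 11.3% higher. Slc25a39, which imports glutathione into mitochondria, was 1844 at DN1, 2362 at DN2, 2974 at DN3, 2358.5 at preDP and 825 at DP. DP was 2.86-fold lower than preDP and 2.23-fold below the lowest of the other 4 arrays. Slc25a15, the ornithine carrier, was 279.6, 386, 601, 536 and 207 over the arrays, with DP 2.59-fold below preDP. Both genes were highest in DN3 and lowest in DP. Slc25a1, which exports citrate for lipid synthesis, was 1130.2, 1518, 1056, 909.6 and 521 from DN1 to DP and 1.75-fold lower at the last step. Its second probe set gave a log2 ratio of -1.08 for that step, where the one used gave -0.80.

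Slc25a53, a family member that was high on the first arrays, was 728 in DN1 and 733 in DN2, then 231 in DN3, 208 in preDP and 189 in DP. DN3 was 3.18-fold lower than DN2. Slc25a36, a carrier of pyrimidine nucleotides, was 963, 874, 852 and 509 from DN1 to preDP and 1082 in DP, 2.13-fold higher than in preDP. Here preDP was the array that stood apart. Slc25a44, a carrier of branched-chain amino acids, was 165 at DN1, 195 at DN2, 219.6 at DN3, 257 at preDP and 351 at DP, with no step down. By the probe sets used, the ADP and ATP exchangers Slc25a4 and Slc25a5 were 1.84-fold and 1.98-fold apart and highest in preDP, at 4753.5 and 1926. The Slc25a5 probe set used is of the _f_at kind, which can bind transcripts of similar genes. The other Slc25a5 probe sets were highest in DN3. One, above the floor on all arrays, was 381 in DN3 and 369 in preDP. The other was 189 in DN3 and under the floor in preDP. The other 8 measured mitochondrial carriers were 1.18-fold to 1.92-fold apart. Slc25a3, the phosphate carrier, stayed under the floor.

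**Figure D3:**
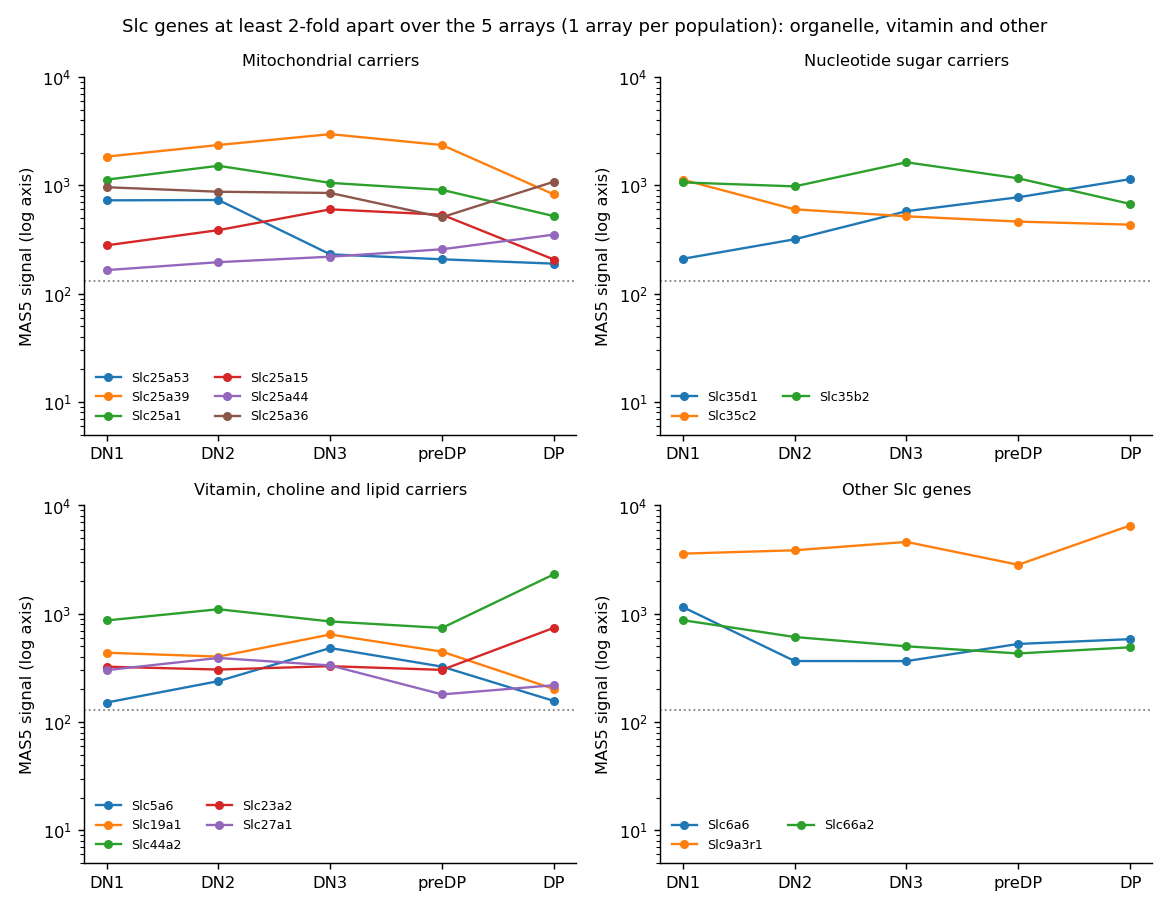
MAS5 signal (log axis) on each of the 5 arrays for the mitochondrial, nucleotide sugar, vitamin, choline and lipid, and other Slc genes that were at least 2-fold apart over the arrays. Each point is 1 array, lines join arrays of 1 gene, and the dotted line is the floor of 130.4. Slc35d1 is higher at each step from DN1 to DP, and Slc25a53 is low from DN3 on.

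Nucleotide sugar carriers of family 35 supply the Golgi apparatus and the endoplasmic reticulum with activated sugars for glycosylation. Slc35d1, which carries UDP-glucuronic acid and UDP-N-acetylgalactosamine, had signals of 209.9 at DN1, 318 at DN2, 578 at DN3, 777 at preDP and 1142.5 at DP. It was higher on each array than on the one before, and 5.44-fold apart from DN1 to DP. No single step reached 2-fold, and the largest was 1.82-fold from DN2 to DN3. Slc35c2, a relative of the fucose donor carriers, ran the other way, at 1129 at DN1, 601 at DN2, 518 at DN3, 463 at preDP and 434 at DP. Without DN1 it was 1.39-fold apart. Slc35b2, which carries the sulphate donor PAPS, was 1066, 979.7, 1635.5, 1162 and 675 from DN1 to DP, with its peak in DN3. Slc35a2, the carrier of UDP-galactose, was above the floor in DP alone, at 238.

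No step down and a difference of at least 2-fold from DN1 to DP was found for Slc35d1, Slc20a1 and Slc25a44, 3 of 86, with a background of 2.43%. No step up and the same size was found for Slc35c2 and for Slc7a7, which passed the floor only in DN1, 2 of 86 with a background of 5.33%.

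Vitamin, choline and lipid carriers held 4 of the 17 calls in DP against preDP. Of 9 measured in this step, 2 were higher and 2 lower, with backgrounds of 11.3% and 11.7%. Slc19a1, the carrier of reduced folate, was 437 at DN1, 402 at DN2, 643 at DN3, 446 at preDP and 202 at DP. DP was 2.21-fold lower than preDP by this probe set, a log2 ratio of -1.14, while the second probe set, with the suffix _f_at, gave -0.24. Slc5a6, which imports biotin and pantothenate, was 151, 239, 482, 325 and 157 over the arrays. DN3 was 2.02-fold above DN2 and DP 2.07-fold below preDP, so that DN1 and DP were alike and DN3 was the high array. In DN3 it stood with Slc7a5, Slc11a2, Slc19a1, Slc25a15, Slc25a39 and Slc35b2, the other Slc genes among the 35 that were highest there.

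Slc44a2 and Slc23a2 were highest in DP. Slc44a2, a choline carrier, was between 739.5 and 1101 on the 4 blast arrays and 2314 in DP, 3.13-fold above preDP. Slc23a2, which imports vitamin C with sodium, was between 303 and 328 on those 4 arrays and 742 in DP, 2.45-fold above preDP. Together with Slc41a1 these were the 3 of 86 Slc genes with DP at least 2-fold above every other array, where the background was 4.08%. Slc7a5, Slc25a39 and Slc48a1 were the 3 with DP at least 2-fold below every other array, against a background of 2.63%. These counts of 3 became 6 and 1 with an equal median over all gene probe sets, and 1 and 1 with an added constant. Slc27a1, a fatty acid carrier, was 302, 391, 333, 179.98 and 219 from DN1 to DP, with preDP lowest.

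Slc6a6, which imports taurine, was 1153 at DN1, 366 at DN2, 365 at DN3, 526 at preDP and 583 at DP. It was 3.15-fold lower in DN2 than in DN1. With the mean over its probe sets the log2 ratio was -0.83 in place of -1.66. Of the 6 genes highest in DN1, Slc6a6, Slc6a9, Slc35c2 and Slc66a2 were above the floor on all arrays, and over the 4 arrays without DN1 they were 1.39-fold to 1.60-fold apart. The other two, Slc7a7 and Slc2a3, were under the floor on most of those arrays. DN1 is the array on which myeloid, dendritic and B lineage markers were high, with the sums given above, and their part in these values was not tested. Slc66a2 was 873 in DN1 and between 429.9 and 610.1 on the other arrays. Slc9a3r1, an adaptor that anchors membrane proteins to the cell cortex, was 3591, 3858.5, 4608.5, 2835 and 6531 from DN1 to DP and 2.30-fold higher in DP than in preDP. Slc4a1ap, which also bears the prefix without being a carrier, was under 2-fold apart, and the adaptor gene Slc9a3r2 passed the floor only in DN1, at 141.

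Between DN3 and preDP, Slc30a4 was 1.80-fold higher in preDP and Slc27a1 1.85-fold lower. With the floor at the 35th percentile 4 Slc genes were called in this step, 3 higher and 1 lower. Slc12a7 and Slc25a36 lay 1.68-fold lower in preDP than DN3 and Slc9a3r1 1.63-fold lower, and all 3 were called higher in DP than in preDP. For these 3 genes preDP was lower than both DN3 and DP, and both ratios share the 1 preDP array. Of the 35 Slc genes 2-fold apart over the arrays, 7 were lowest in preDP, where the background was 17.9%.

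**Figure D4:**
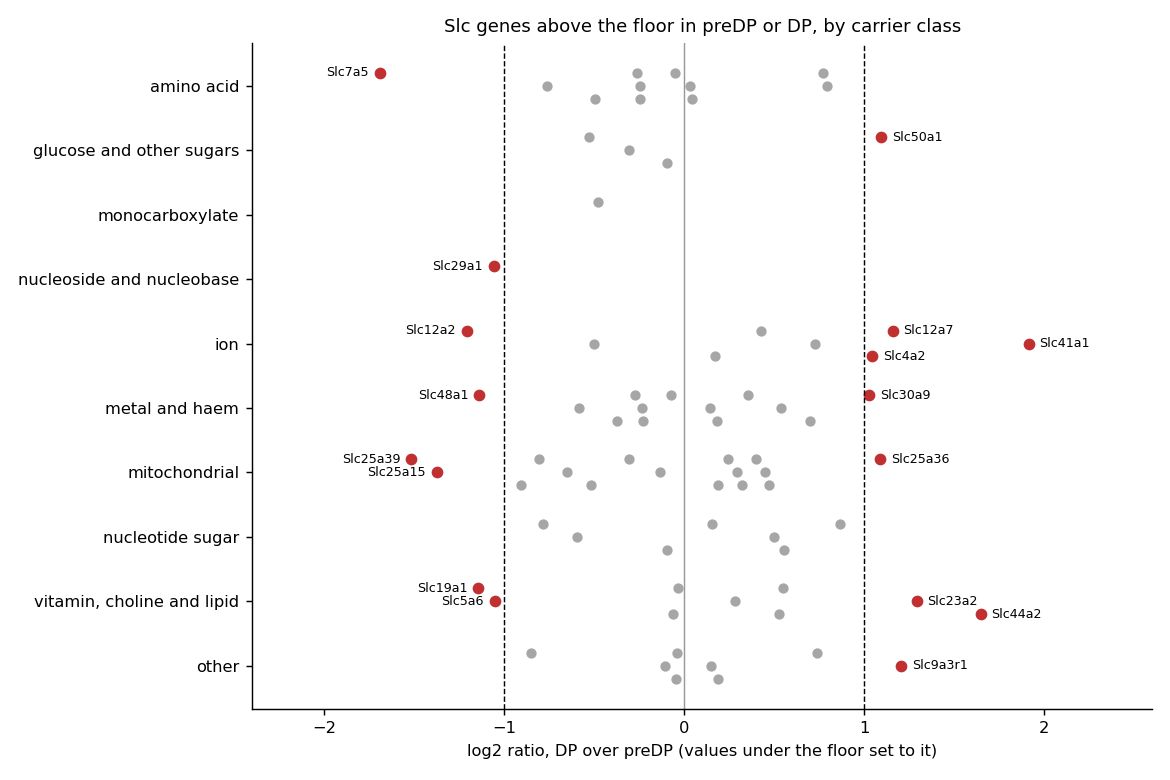
The log2 ratio of DP over preDP for the 78 Slc genes above the floor in either population, by carrier class, with values under the floor set to it. Red points with names are the 17 genes at least 2-fold apart (dashed lines), 9 higher and 8 lower, and they range from -1.69 for Slc7a5 to 1.91 for Slc41a1.

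Promoter sequences were read for the genes called in the last step, because they were the largest group that differed in a single comparison. RefSeq promoters (GRCm38.p6, 250 bases before to 50 after each listed start) were matched by symbol for all 9 higher genes and 5 of the 8 lower ones, without Slc7a5, Slc12a2 and Slc48a1. The E-box CACGTG, which reads the same on both strands and is bound by Myc and its relatives, was found for 2 of the 9 higher genes and 2 of the 5 lower ones. Of all 27025 genes in the promoter set 8.09% had it, and of the 124 matched Slc genes 16.1%. The promoter set was not limited to genes on the array or above the floor, whereas the Slc genes were all on the array. Its shares, for all motifs here, are therefore no like background for Slc genes. Called genes must pass the floor, and of the 72 matched Slc genes above it on at least 1 array 13.9% had the E-box. Counted per promoter it was in 3 of 13 for the higher genes, 13.3% for the lower, 12.6% for Slc genes and 7.15% for all genes. For Slc genes above the floor it was in 10.3% of promoters. The GC box GGGCGG, on either strand, was in 61.7% of Slc promoters and 35.7% of all promoters. It was in 69.2% of promoters of the higher genes and 73.3% of those of the lower genes, near the 70.1% for Slc genes above the floor. The sequence TGATGNAA, a form of the amino acid response element, was in 4% of Slc promoters and 3.97% of all promoters on either strand, and for Slc50a1 alone of the called genes matched. The motifs were chosen after the values were seen. Promoters of 1 gene can overlap and share a motif. The 4 windows below show the E-box (capitals) with 12 bases on each side, 5′ to 3′ on the strand of the gene, for genes of both directions. Slc25a15 (lower in DP) lies on the minus strand at chr8:22398337-22398366 and Slc29a1 (lower) on the minus strand at chr17:45595304-45595333. Slc12a7 (higher) lies on the plus strand at chr13:73763647-73763676 and Slc25a36 (higher) on the minus strand at chr9:97111211-97111240.
Slc25a15: cgccctgccgcaCACGTGccgcggctccgg
Slc29a1: gagcagcgccagCACGTGgcgcgcatgggc
Slc12a7: ggcaggtgaggtCACGTGgcgggcaagggc
Slc25a36: cccctgggcgatCACGTGaaagaggcgtgc
The motif ended 71, 69, 32 and 181 bases before the listed start in the same order. A match is a sequence of letters and no measured binding.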

How the data were processed

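Signals of 5 arrays, 1 per sorted mouse thymocyte population, were analysed. The deposited signal intensities come from MAS5 in Affymetrix Expression Console 1.0, according to the submitters' processing notes, which are credited to the authors. No source used here gives their settings. After trimming 2% at each end the mean was 499.9 on every array, as scaling to 1 target gives, so total mRNA per cell cannot be compared.

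The arrays hold 12488 probe sets, among them 10855 that name a single gene, 396 that name several and 1237 that name none. Gene identifiers of 10839 were found in RefSeq GRCm38.p6, which altered 0 symbols. Controls and probe sets with several or no symbols were left out, 1 of them of Slc22a28 and Slc22a30. The floor was the 50th percentile of gene probe set values, and log2 ratios were taken after it. Genes above the floor on either array of a comparison count as measured. With 1 array per population the number of arrays limits the precision.

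Named genes are those at least 2-fold apart over the arrays and a list of known carriers, and other names were chosen after their values were seen. Members, lists and classes were chosen with earlier results of these data known. Slc38a1, Slc38a9, Slc16a3, Slc28a2, Slc29a3, Slc43a3, Slc20a2, Slc39a10, Slc40a1 and Slc25a37 were not analysed here. Of 29 Slc genes with over 1 probe set, 7 had another above the floor on all arrays. A probe set with a letter suffix was used for 8 genes, among them Slc25a5, Slc30a5, Slc39a4 and Slc23a3. The adaptor genes Slc4a1ap, Slc9a3r1 and Slc9a3r2 were set among other Slc genes. The counting step was tested on simulated data. Python 3.11.15, numpy 2.4.6, pandas 2.3.3 and matplotlib 3.10.9 were used.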

Additional observations from a re-analysis of the deposited data

How the results depend on the processing

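No paired analysis was possible because each population has 1 array. Floors at the 35th and 65th percentile gave 16 and 2 called Slc genes in DN2 against DN1 in place of 6. The shares over all genes were 16.7% and 11.3%. In DN3 against DN2 these floors gave 8 and 2 in place of 4, with shares of 8.42% and 4.21%. The lower floor gave 4 in preDP against DN3 in place of 0, with a share of 6.6%. It gave 56 over the 5 arrays in place of 35. The higher floor gave 11 in DP against preDP in place of 17, with a share of 21.7%. Adding a constant in place of a floor gave 3, 1 and 6 calls in the first, second and last step. There the shares over all genes were 10.1%, 3.91% and 17%. With arrays scaled to an equal median there were 3 in DN2 against DN1, 2 higher and 1 lower, and the Slc median was 0.13 where that of all genes was 0.37. Scaling to an equal median of probe sets above the floor on all arrays, chosen after seeing the data, gave 6, of which none was higher, and a Slc median of -0.24. The mean over probe sets gave 2. Without the DP array 17 genes were 2-fold apart. Of 270 recomputed ratios of called genes 17 moved by more than the probe set SD. This count includes settings that returned every such ratio unchanged and so could move none. They were the platform's own symbols, plain probe sets alone, and the probe set with the highest mean log2 signal. A ratio could also stay within the SD and lose its call. Adding a constant kept 6 of the 17 calls in DP against preDP, and none of those ratios counted as moved.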
